A study of Mus musculus with 2 samples.

Results

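Adiponectin receptors, the adaptor proteins that bind them and the catalytic subunits of the kinase downstream were examined in single cells of the mouse small intestine. The set held 7 genes, taken by symbol from the 55357 genes of the deposited tables: the receptor genes Adipor1 (ENSMUSG00000026457) and Adipor2 (ENSMUSG00000030168), the binding protein gene Cdh13 (ENSMUSG00000031841), the adaptor genes Appl1 (ENSMUSG00000040760) and Appl2 (ENSMUSG00000020263), and the AMPK alpha subunit genes Prkaa1 (ENSMUSG00000050697) and Prkaa2 (ENSMUSG00000028518). The study asked how adiponectin made by Paneth cells acts on intestinal stem cells (ISCs) and transit-amplifying (TA) cells. Epithelium enriched for crypts was dissociated, dead cells were removed on magnetic beads, and RNA was counted by droplet-based sequencing at the 3′ end of transcripts. The control Adipfl/fl mice carried loxP-flanked alleles of the adiponectin gene Adipoq and no Cre. The Adipfl/flpVilli-CreT mice carried the same alleles and a Cre recombinase driven by the villin promoter, which is active in intestinal epithelial cells, so other sources of adiponectin such as fat were left in place. Mice were young adult male littermates, pooled within each genotype, and each genotype gave 1 library, called control and Cre hereafter. Differences between genotypes therefore have no replicate check, no p-value was computed, and the 95% intervals given below cover counting error only.

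Adiponectin is a hormone secreted mainly by fat cells. It binds AdipoR1 and AdipoR2, multi-pass membrane proteins of the PAQR family that carry ceramidase activity, and T-cadherin (Cdh13), a cadherin held to the membrane by a lipid anchor that has no cytoplasmic tail. APPL1 and its paralog APPL2 are endosomal adaptors with BAR, PH and phosphotyrosine-binding domains. APPL1 links the receptors to AMP-activated protein kinase (AMPK), the energy sensor whose catalytic subunit is alpha 1 (Prkaa1) or alpha 2 (Prkaa2). In the intestine, ISCs and TA cells occupy the crypt, and enterocytes mature as they move from the bottom of the villus to its tip.

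RefSeq promoter sequences of both receptor genes and both AMPK alpha genes (build GRCm38.p6, 250 bases before to 50 bases after the transcription start) are shown because the partners differed in their distribution over cell types. Capitals mark CG dinucleotides. The Adipor1 promoter lies at chr1:134415128-134415427 on the plus strand, the Adipor2 promoter at chr6:119388685-119388984 on the minus strand, the Prkaa1 promoter at chr15:5143611-5143910 on the plus strand and the Prkaa2 promoter at chr4:105109849-105110148 on the minus strand.
Adipor1: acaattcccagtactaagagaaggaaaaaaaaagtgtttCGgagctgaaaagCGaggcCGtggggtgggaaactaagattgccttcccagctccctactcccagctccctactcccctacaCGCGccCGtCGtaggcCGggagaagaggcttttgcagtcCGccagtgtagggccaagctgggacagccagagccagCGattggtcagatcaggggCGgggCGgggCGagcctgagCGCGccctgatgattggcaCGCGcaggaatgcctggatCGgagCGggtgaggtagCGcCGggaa
Adipor2: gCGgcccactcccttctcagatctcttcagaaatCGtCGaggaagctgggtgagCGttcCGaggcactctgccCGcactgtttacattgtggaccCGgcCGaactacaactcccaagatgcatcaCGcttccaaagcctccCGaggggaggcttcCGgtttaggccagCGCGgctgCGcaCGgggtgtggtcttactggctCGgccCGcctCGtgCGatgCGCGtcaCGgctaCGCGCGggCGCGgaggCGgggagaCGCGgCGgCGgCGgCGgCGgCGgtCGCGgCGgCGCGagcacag
Prkaa1: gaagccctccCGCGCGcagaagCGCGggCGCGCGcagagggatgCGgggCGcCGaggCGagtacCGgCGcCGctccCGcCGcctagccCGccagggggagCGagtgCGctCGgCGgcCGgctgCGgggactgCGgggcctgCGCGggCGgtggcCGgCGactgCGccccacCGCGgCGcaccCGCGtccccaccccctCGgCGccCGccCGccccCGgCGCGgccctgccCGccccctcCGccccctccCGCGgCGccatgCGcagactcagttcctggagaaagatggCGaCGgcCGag
Prkaa2: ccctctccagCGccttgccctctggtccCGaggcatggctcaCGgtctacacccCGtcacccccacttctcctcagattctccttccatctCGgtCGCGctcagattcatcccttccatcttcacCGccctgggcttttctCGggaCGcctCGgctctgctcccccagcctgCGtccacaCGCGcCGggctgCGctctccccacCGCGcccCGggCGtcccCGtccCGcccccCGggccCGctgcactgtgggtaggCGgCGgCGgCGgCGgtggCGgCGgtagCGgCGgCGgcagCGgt
The 4 sequences held 21, 41, 52 and 35 CG dinucleotides in that order, against a median of 7 over 32851 RefSeq promoters of the same length. The Adipor2 promoter thus held more CG dinucleotides than 96.5% of promoters, and the Adipor1 promoter more than 75.2%. The GC box GGGCGG, searched on both strands, was found 2 times for Adipor1, not for Adipor2, 5 times for Prkaa1 and 2 times for Prkaa2, and 35.7% of all promoters held at least 1. These matches describe the letters of the window and not binding. A second RefSeq start of Adipor1, whose window begins within the first, held 40 CG dinucleotides (more than 96.1% of promoters) and 3 GC boxes. The Appl2 promoter held 31 and 1. In the GENCODE M21 annotation of GRCm38 the Adipor1 gene spans 17.97 kb (chr1:134415378-134433351) and the Adipor2 gene 64.6 kb (chr6:119353150-119417704), so the Adipor2 promoter shown lies within the annotated gene. Prkaa1 (chr15:5143861-5181899) and Prkaa2 (chr4:105029874-105109890) span 38.0 and 80.0 kb.

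In all, 3069 of 9791 control barcodes and 5555 of 11838 Cre barcodes had more than 500 genes and under 25% mitochondrial UMIs, a UMI being 1 counted RNA molecule. The kept cells held 25687687 and 48895126 UMIs, with medians of 4838 and 4749 UMIs per cell. Clustering gave 13 classes named from marker genes, 8 of them epithelial and 5 immune, and the suffix "-like" marks such a name. Stem-like cells carried raised levels of 11 of 11 stem cell markers and 12 of 12 cycling markers, but also of 6 of 9 Paneth cell markers. Goblet-like cells carried 7 of 9 Paneth markers beside 7 of 7 goblet markers, and no separate Paneth class was found. The stem-like class held 41 control and 114 Cre cells and the TA-like class 43 and 95, so their values rest on fewer cells than those of the 1189 and 1820 mid-villus-like cells. The 2 libraries shared 31 barcodes, 3 of them among kept cells. The libraries also differed in makeup, since villus tip-like cells were 19.2% of kept control cells and 30.9% of kept Cre cells. Crypt clusters left without a name, with 11 of 12 cycling and 4 of 11 stem cell markers, held 2 control and 72 Cre cells. They counted toward all epithelial cells, and their Adipor1 and Adipor2 levels in the Cre library were 93.5 and 184 counts per 1000000 UMIs. The immune classes show that the sample was not epithelium alone. Adipoq itself (ENSMUSG00000022878) had 0 UMIs in kept cells of both libraries, which allows up to 0.135 counts per 1000000 UMIs in control and 0.0663 in Cre epithelial cells, so its count cannot check the genotype labels.

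Adipor1 and Adipor2 were both expressed in every epithelial class, but were distributed differently along the crypt-villus axis. Levels are counts per 1000000 (CPM), the UMIs of a gene over all UMIs of the class, and are compared for 1 gene across classes because 3′ counting does not rank different genes. Adipor1, which couples mainly to AMPK, was at 93.6 CPM in stem-like control cells (95% interval 75.9 to 114) and at 105 in Cre cells (93.3 to 118). Its level was 143 and 128 in TA-like cells, 141 and 139 in villus bottom-like cells, 105 and 103 in mid-villus-like cells and 65.4 and 68.8 in villus tip-like cells, control first. Adipor1 was thus highest around the crypt-villus junction, and its level at the villus bottom was 2.16-fold that at the tip in control cells (1.82 to 2.58) and 2.02-fold in Cre cells (1.82 to 2.25). Against stem-like cells the villus bottom level was 1.51-fold in control (1.22 to 1.88) and 1.32-fold in Cre cells (1.17 to 1.51). Goblet-like, tuft-like and enteroendocrine-like cells lay between 67.1 and 109 CPM. Of all 13 classes, myeloid-like cells had the highest Adipor1 level in both libraries, 152 and 143, but they did not differ from TA-like or villus bottom-like cells beyond counting error. In the order of the 13 classes only 1 step between neighbours exceeded counting error in each library.

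Adipor2, the receptor tied in liver to PPAR alpha signalling, spanned a wider range. Its lowest level among named epithelial classes was that of stem-like cells, at 67.5 CPM in control (52.6 to 85.3) and 75.0 in Cre cells (65.1 to 85.9). TA-like cells had 158 and 129, villus bottom-like cells 392 and 361, and mid-villus-like cells 429 and 395. The mid-villus level was 6.35-fold the stem-like level in control cells (5.01 to 8.16) and 5.26-fold in Cre cells (4.58 to 6.07). TA-like cells already stood 2.34-fold above stem-like cells in control (1.78 to 3.12) and 1.72-fold in Cre cells (1.44 to 2.05). Adipor2 was lower again at the villus tip, where the mid-villus level exceeded it 2.54-fold in control (2.29 to 2.82) and 2.32-fold in Cre cells (2.18 to 2.48). Goblet-like cells, the mucus-secreting lineage, had 280 and 299.9 CPM, and the order mid-villus, villus bottom, goblet was the same in both libraries, with each of these steps beyond counting error. With every cell thinned to 2000 UMIs, which left out 179 control and 296 Cre cells, 19.5% of control and 13.3% of Cre stem-like cells held an Adipor2 UMI, against 51.9% and 48.8% of mid-villus-like cells. Without thinning these shares were 73.2% and 69.3% of stem-like cells and 74.5% and 77.3% of mid-villus-like cells, which differ in depth.

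**Figure D1:**
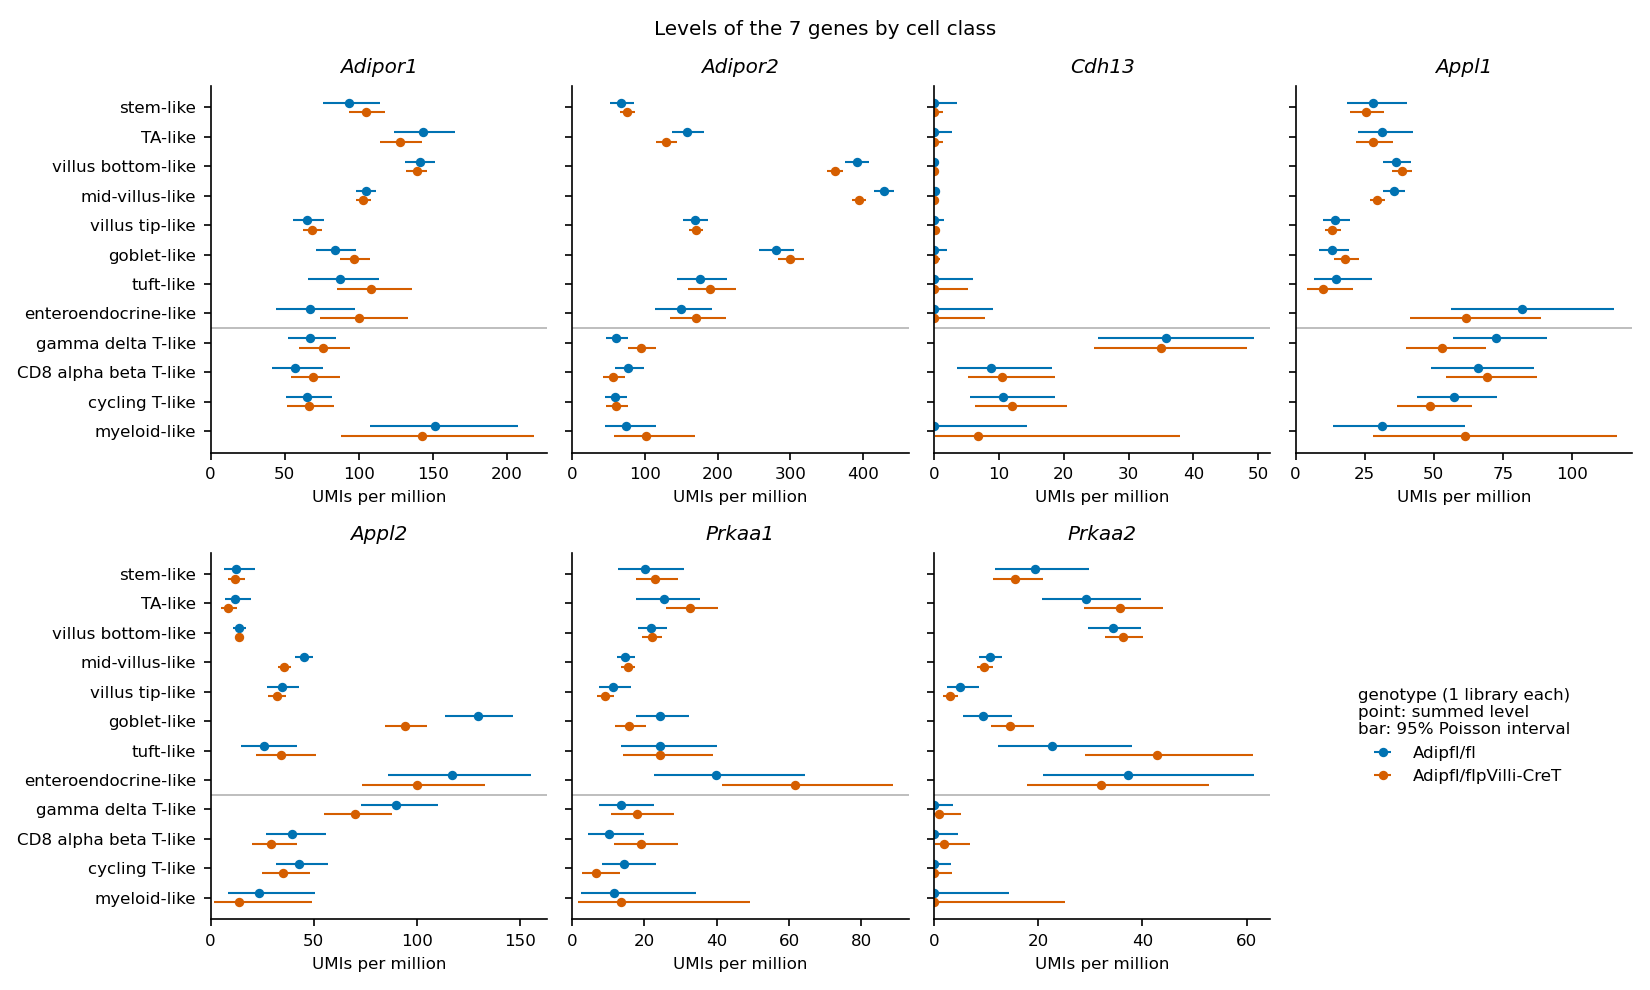
Level of each of the 7 genes (CPM, linear axis from 0) in 8 epithelial classes above the grey line and 4 immune classes below it; points are the summed level of 1 library per genotype and bars the 95% Poisson interval. Adipor2 runs from 67.5 CPM in stem-like control cells to 429 in mid-villus-like ones, Cdh13 stands almost only in the T cell classes, and Appl2 is highest in goblet-like and enteroendocrine-like cells.

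The ratio of Adipor1 to Adipor2 UMIs does not depend on the depth of a class. It was 1.39 in stem-like control cells (1.01 to 1.91) and 1.40 in Cre cells (1.17 to 1.68), then 0.906 and 0.994 in TA-like, 0.361 and 0.385 in villus bottom-like and 0.244 and 0.261 in mid-villus-like cells. Villus tip-like cells were at 0.387 and 0.405. Of the 8 named epithelial classes, stem-like cells thus had the highest ratio and mid-villus-like cells the lowest in both libraries, although the stem-like and TA-like intervals overlapped in control cells (0.741 to 1.11 in TA-like cells). Over all epithelial cells the ratio was 0.326 and 0.359, and over all immune cells 1.00 in both. The pooled immune value covers unlike cells. Myeloid-like cells were at 2.05 (1.16 to 3.76) and 1.40 (0.688 to 2.92). An unnamed immune cluster with Siglech among its leading genes, of 23 control and 13 Cre cells, was at 0.188 (0.0641 to 0.455) and 0.154 (0.0169 to 0.680). At the carried-over proportion described below, enterocyte RNA would give 73.8 of 242 control and 167 of 260 Cre Adipor2 UMIs of immune cells. For Adipor1 it would give 21.6 of 242 and 53.4 of 261, so the immune ratio is not read as that of immune RNA alone. In the Siglech cluster Adipor2 was at 237 and 210 CPM, from 32 and 13 UMIs, against carried-over levels of 14.8 and 62.7. Per cell, 26 of 41 control and 65 of 114 Cre stem-like cells held UMIs of both receptors, 9 and 22 of Adipor1 alone, 4 and 14 of Adipor2 alone, and 2 and 13 of neither. At least 1 receptor was thus detected in 95.1% and 88.6% of stem-like cells, whose median depth was 18065 and 18286.5 UMIs. Among stem-like cells with an Lgr5 UMI, the marker of cycling ISCs, a receptor was detected in 6 of 6 control and 27 of 31 Cre cells.

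**Figure D2:**
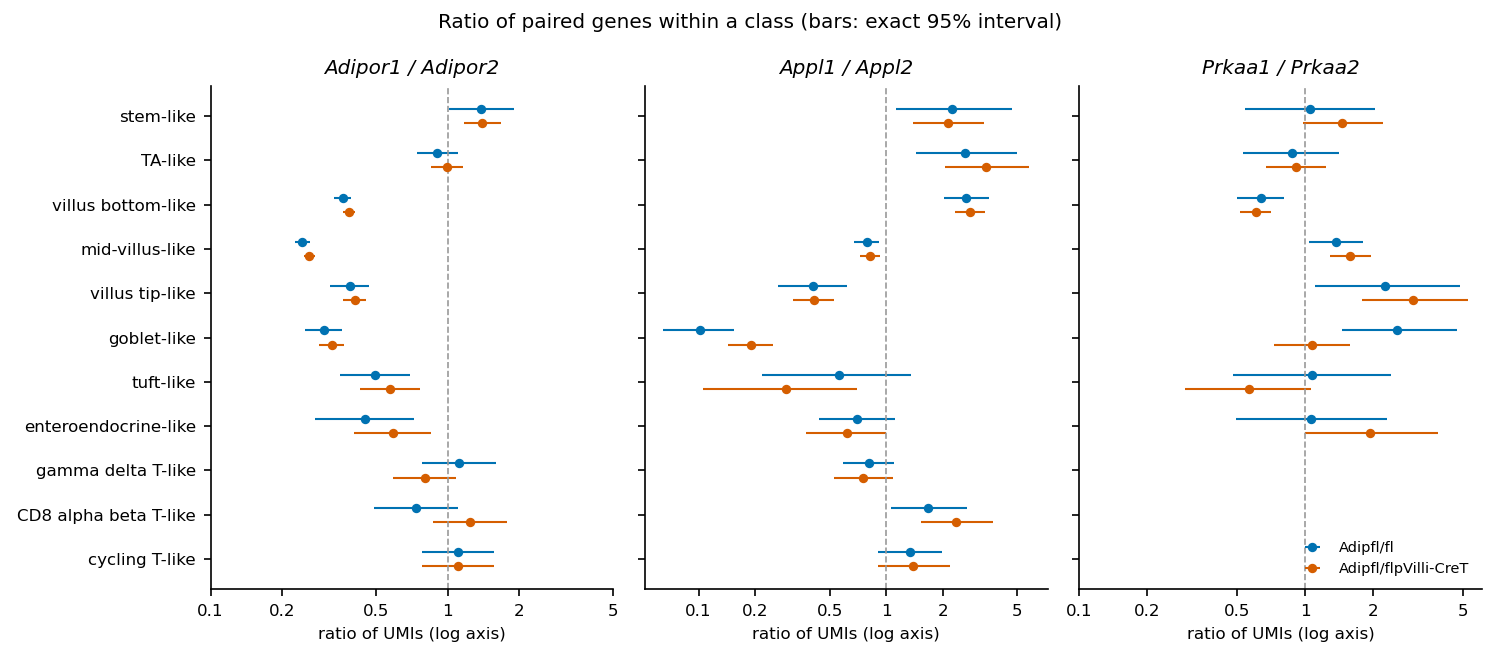
Ratio of UMIs of the paired genes (log axis) in 11 classes for each genotype's library, with the exact 95% interval; the dashed line marks equal UMIs and classes with too few UMIs are not drawn. Adipor1 to Adipor2 runs from 1.39 in stem-like to 0.244 in mid-villus-like control cells, Appl1 to Appl2 from 2.68 in villus bottom-like to 0.102 in goblet-like control cells, and Prkaa1 to Prkaa2 from 0.636 in villus bottom-like to 2.56 in goblet-like control cells.

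Cdh13 was found in T cells and almost nowhere in the epithelium. It had 57 UMIs in kept control cells and 63 in kept Cre cells, of which 1 in each library lay in an epithelial cell. Gamma delta T-like cells, named from 8 of 9 T cell and 3 of 5 gamma delta markers after the T cells that live between enterocytes, also had 3 of 7 CD8 alpha beta markers. The CD8 alpha beta and cycling T-like classes had the same 3 of 5 count, so that count does not set the gamma delta class apart. Gamma delta T-like cells held 37 UMIs in each library, or 35.8 CPM in control (25.2 to 49.4) and 35.0 in Cre cells (24.6 to 48.2). They were 6.78% and 3.87% of kept cells and held 64.9% and 58.7% of the Cdh13 UMIs. CD8 alpha beta T-like cells, which had 7 of 7 CD8 alpha beta but also 3 of 5 gamma delta markers, were at 8.86 and 10.5 CPM, and cycling T-like cells at 10.7 and 11.97. The gamma delta level was 4.04-fold that of CD8 alpha beta T-like cells in control (1.78 to 10.7) and 3.35-fold in Cre cells (1.67 to 7.28). Cdh13 was among the 10 leading genes of the gamma delta T-like cluster. Neither it nor any other of the 7 genes was among the 2000 variable genes of the first clustering, which gave that cluster. The variable genes of the later splits were not recorded. Within the CD8 class its UMIs came from the cluster led by Xcl1, with 7 control and 10 Cre UMIs, and the cluster with Ifng among its leading genes held 0 and 1. Stem-like cells had 0 UMIs, which allows up to 2.89 CPM in control and 1.09 in Cre cells. The Cdh13 gene spans 1041 kb (chr8:118283733-119324921, plus strand) with 1 other annotated gene, Gm22999, on the same strand inside it. Whether intronic reads were counted is not given in the sources used here, so the part that introns of this gene had in its count was not tested.

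The adaptor genes divided the epithelium. Appl1 was high in enteroendocrine-like cells, at 82.0 CPM in control (56.4 to 115) and 61.8 in Cre cells (41.4 to 88.7), and in the 3 T cell classes, at 48.8 to 72.6. In absorptive cells it was at 36.4 and 38.5 at the villus bottom and at 14.1 and 13.2 at the tip, a 2.58-fold difference in control (1.79 to 3.83) and a 2.91-fold one in Cre cells (2.31 to 3.70). Goblet-like cells had 13.2 and 17.9. The enteroendocrine level was 6.21-fold the goblet level in control (3.58 to 10.9) and 3.44-fold in Cre cells (2.15 to 5.40), and the Cre value was 5.79-fold (3.34 to 9.98) without the 8% of cells with the highest doublet scores and 5.82-fold as a mean over cells. Within the enteroendocrine class the cluster led by the hormone genes Ghrl, Gcg and Cck was at 107 and 115, and the cluster with Tph1, the serotonin-synthesis enzyme, among its leading genes at 47.3 and 12.3, the latter from 8 and 3 UMIs.

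Appl2 showed a different distribution. Goblet-like cells were at 129 CPM in control (114 to 147) and 94.3 in Cre cells (84.7 to 105), and enteroendocrine-like cells at 117 and 100.1. Stem-like, TA-like and villus bottom-like cells had between 8.25 and 13.8. Goblet-like cells thus stood 9.52-fold above villus bottom-like cells in control (7.31 to 12.5) and 6.82-fold in Cre cells (5.63 to 8.30), and enteroendocrine-like cells 8.59-fold (5.83 to 12.5) and 7.24-fold (5.11 to 10.1). Mid-villus-like cells were at 45.1 and 35.7, which was 3.32-fold the villus bottom level in control (2.58 to 4.32) and 2.58-fold in Cre cells (2.16 to 3.11). Under 10% mitochondrial UMIs this fold was 2.38 (1.73 to 3.29) and 1.82 (1.45 to 2.28). As a mean over cells the goblet to villus bottom fold was 13.2 and 8.86, and the Cre mid-villus fold 3.12. Without the 8% of cells with the highest doublet scores the Cre goblet fold was 8.42 (6.83 to 10.4). Among T cells, gamma delta T-like cells had 90.1 and 70.0 CPM, 2.29-fold the CD8 alpha beta level in control (1.51 to 3.57) and 2.38-fold in Cre cells (1.54 to 3.74). Within the CD8 class the cluster led by Xcl1 had 51.5 and 49.1 and the other 12.2 and 7.96, the same split as for Cdh13.

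The Appl1 to Appl2 ratio was 2.23 in stem-like control cells (1.12 to 4.68) and 2.12 in Cre cells (1.38 to 3.31), and 2.62 and 3.38 in TA-like cells. It was 2.68 and 2.78 at the villus bottom, 0.787 and 0.823 at mid-villus and 0.410 and 0.411 at the tip. Goblet-like cells had the lowest ratio, 0.102 in control (0.0648 to 0.154) and 0.190 in Cre cells (0.144 to 0.248). As a mean over cells these were 0.0496 and 0.0958, and the Cre ratio was 0.111 (0.0748 to 0.161) without the 8% of cells with the highest doublet scores. The mid-villus ratio moved with the mitochondrial share of the cells. It was 1.27 and 1.30 in mid-villus-like cells under 10% mitochondrial UMIs and 0.599 and 0.586 in those with 10 to 25%, whereas the villus bottom ratio in cells with 10 to 25% was 2.90 and 2.71. What part the mitochondrial share had in the mid-villus ratio was not tested.

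The AMPK catalytic subunits were less abundant in the tables and also differed from each other. In the epithelium Prkaa1 ranged from 11.2 and 9.01 CPM at the villus tip to 39.7 (22.7 to 64.5) and 61.8 (41.4 to 88.7) in enteroendocrine-like cells. The enteroendocrine level was 3.55-fold the tip level in control (1.79 to 6.84) and 6.86-fold in Cre cells (4.24 to 10.8), and the villus bottom level was 1.95-fold (1.28 to 3.09) and 2.44-fold (1.83 to 3.29). Prkaa1 was also found in immune cells, with 43 and 51 UMIs in all. Prkaa2 was nearly absent from immune cells, with 0 UMIs in control immune cells, which allows up to 0.870 CPM, and 4 UMIs in Cre immune cells. It was at 34.3 CPM in villus bottom-like control cells (29.6 to 39.6) and 36.3 in Cre cells (32.9 to 40.0), against 10.7 and 9.68 at mid-villus and 4.97 (2.57 to 8.68) and 3.004 (1.83 to 4.64) at the tip. The villus bottom level was 6.91-fold the tip level in control (3.86 to 13.6) and 12.1-fold in Cre cells (7.73 to 20.0). It also exceeded the stem-like level, 19.3 and 15.6, by 1.78-fold (1.12 to 2.98) and 2.33-fold (1.70 to 3.27). TA-like cells, at 29.1 and 35.7, did not differ from villus bottom-like cells beyond counting error in either library. Enteroendocrine-like cells were at 37.3 and 32.0, the highest Prkaa2 level of the control library. Tuft-like cells, a chemosensory lineage, had 22.6 and 42.9, the highest level of the Cre library. In neither library did the highest class exceed villus bottom-like cells, the next in order, beyond counting error. The Prkaa1 to Prkaa2 ratio was 0.636 and 0.605 at the villus bottom, 1.37 and 1.59 at mid-villus and 2.25 and 3 at the tip. Under 10% mitochondrial UMIs the mid-villus interval included 1 in both libraries, 0.811 to 1.77 and 0.939 to 1.64. In mid-villus-like cells with 10 to 25% the ratio was 1.58 (1.06 to 2.37) and 2.18 (1.58 to 3.03). The villus bottom ratio at 10 to 25% was 0.68 and 0.558. What part the mitochondrial share had in the mid-villus Prkaa1 to Prkaa2 ratio was not tested. Over all goblet-like cells the ratio was 2.56 in control (1.45 to 4.68) and 1.07 in Cre cells (0.729 to 1.59). The libraries thus did not give the same ratio there. In stem-like cells it was 1.05 (0.542 to 2.04) and 1.47 (0.979 to 2.21), which cannot be told from equal UMIs at this depth.

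To follow the genes along the villus without class borders, 2003 control and 3978 Cre enterocytes were ranked by the share of villus tip marker UMIs among tip and bottom marker UMIs, and each library was divided into 5 bins of equal cell number. Adipor2 was at 421, 467, 351, 248 and 153 CPM from the first to the last control bin and at 388, 395, 286, 199.8 and 150.4 in Cre bins. The second bin stood above the first beyond counting error in control but not in Cre cells, and with 3 bins the first was highest in both. The last bin was 0.364-fold and 0.388-fold the first. Adipor1 was highest in the first bin, with 133 and 132, and went down to 64.6 and 58.2 in the last, a ratio of 0.485 (0.393 to 0.593) and 0.443 (0.379 to 0.514). Appl1 was at 38.7 and 36.7 in the first bin and 9.85 and 10.3 in the last, a ratio of 0.254 (0.144 to 0.419) and 0.280 (0.191 to 0.398). Prkaa2 had the steepest gradient of the 6 genes, from 29.0 and 28.6 to 3.08 and 2.80, a ratio of 0.106 (0.0341 to 0.251) and 0.0979 (0.0445 to 0.187). Prkaa1 had a shallower one, from 21.2 and 19.7 to 9.85 and 8.10. Appl2 was the only one of the 6 with a peak in the middle, at 19.4, 39.9, 64.8, 52.2 and 33.2 in control bins and 16.7, 39.9, 48.9, 40.4 and 24.6 in Cre bins, and its last bin stood 1.72-fold (1.24 to 2.35) and 1.47-fold (1.13 to 1.89) above its first.

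**Figure D3:**
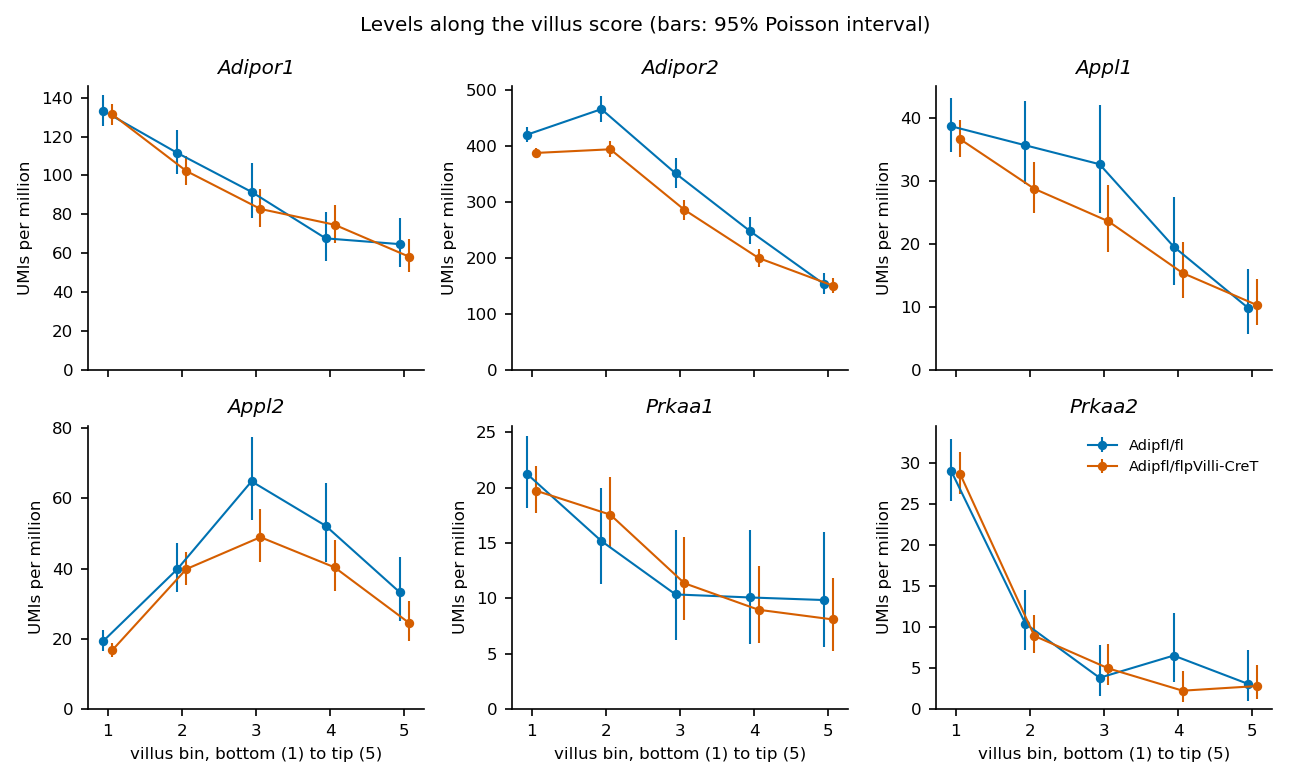
Level of 6 genes (CPM, linear axis from 0) in 5 bins of enterocytes from the bottom (1) to the tip (5) of the villus score, for 1 library per genotype, with 95% Poisson intervals. Adipor1, Appl1, Prkaa1 and Prkaa2 are highest in the first bin and Appl2 in the third in both libraries, and Adipor2 is highest in the first 2 bins.

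Cell state moved along the same bins. Median depth went from 18100 to 3736 UMIs in control and from 17947 to 3632 in Cre cells, and the mitochondrial share from 7.08% to 19.1% and from 6.51% to 18.4%. A limit of 10% mitochondrial UMIs left 3 of 588 control and 17 of 1717 Cre villus tip-like cells. The bins were cut again from the cells left under that limit, so their last bin covers another range of the score. The last to first bin ratio of Adipor2 was then 1.51 and 1.18, against 0.364 and 0.388 in the bins of all cells. That of control Appl1 was 1.52 and of Cre Appl1 0.728. The ratio of Adipor1 became 0.832 (0.666 to 1.04) and 0.757 (0.652 to 0.877), that of Prkaa1 0.810 (0.434 to 1.46) and 0.666, that of Prkaa2 0.265 and 0.277, and that of Appl2 2.94 and 2.68. Within these bins, only Prkaa2 and Appl2 of the 6 genes kept their direction with an interval excluding 1 in both libraries. Few tip-like cells remained, so the gradient up to the tip was not tested at a low mitochondrial share. Among cells with 10 to 25% mitochondrial UMIs, where mid-villus-like and tip-like cells had median depths of 3998 and 3773 in control and 4326 and 3491.5 in Cre cells, Adipor2 was at 400.3 against 168 in control and 363 against 170.0 in Cre cells. In the same cells Adipor1 was at 94.9 against 65.3 and 90.0 against 68.8, Appl1 at 32.1 against 14.1 and 27.2 against 13.2, and Prkaa2 at 8.13 against 4.58 and 7.01 against 3.06. Prkaa1 was at 12.9 (9.98 to 16.3) against 11.2 (7.40 to 16.3) in control, which overlap, and at 15.2 against 9.19 in Cre cells. Within 10 to 25% mitochondrial UMIs, Adipor1, Adipor2 and Appl1 were thus lower in tip-like than in mid-villus-like cells of both libraries. That range is wide, and whether both classes had a like mitochondrial share within it was not tested. With mitochondrial UMIs taken out of the total, the last to first bin ratio of Adipor2 was 0.418 (0.366 to 0.476) in control and 0.444 (0.404 to 0.487) in Cre cells. With a minimum of 1000 genes per cell it was 0.445 and 0.431. Without mitochondrial UMIs the Cre villus bottom to tip fold of Adipor1 was 1.74 (1.57 to 1.94), and the Cre mid-villus to tip fold of Adipor2 2.14 (2.01 to 2.28). Beyond these values, the part of the mitochondrial share and depth in the gradient over all bins was not tested.

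The components were also counted together in single cells, as a description. UMIs of a receptor, an APPL adaptor and an AMPK alpha subunit were all found in 31.7% of control and 34.2% of Cre stem-like cells, and in 48.8% and 47.4% of TA-like cells. The share was 41.6% and 48.1% in villus bottom-like cells, 8.07% and 8.08% in mid-villus-like cells and 0.170% and 0.641% in tip-like cells. Median depth fell in parallel, from between 18065 and 34534 UMIs in the first 3 classes to between 3496 and 5462.5 in the last 2, so these shares were not compared further.

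In the T cell classes, UMIs of enterocyte genes gave a measure of RNA carried over from enterocytes. The summed level of 10 enterocyte genes reached 6.05% of its enterocyte level in control gamma delta T-like cells and 23.1% in Cre ones, 7.21% and 13.2% in CD8 alpha beta T-like cells, and 3.21% and 5.72% in cycling T-like cells. If the 7 genes had been carried over in the same proportion, gamma delta T-like cells would show Adipor2 at 22.9 CPM in control and 78.4 in Cre cells. The measured levels were 60.04 (46.0 to 77.0) and 94.6 (77.0 to 115), so the Cre value lay close to the carried-over one. For Appl1 the carried-over level was 1.98 and 6.76 against 72.6 and 53.0 measured, for Appl2 2.01 and 6.40 against 90.1 and 70.0, and for Adipor1 6.71 and 25.03 against 66.8 and 75.7. Those of Cdh13 were 0.00364 and 0.00685 against 35.8 and 35.0. For Prkaa2 the carried-over level, 1.07 and 3.99, and the measured one, 0 and 0.946, were within counting error of each other. In Cre CD8 alpha beta T-like cells Adipor2 was at 56.1 CPM, with a lower bound of 42.7, also close to its carried-over level of 44.9. In stem-like cells the list stood at 2.69% and 4.59%, which corresponds to 10.2 and 15.6 CPM of Adipor2 against 67.5 and 75.0 measured.

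**Figure D4:**
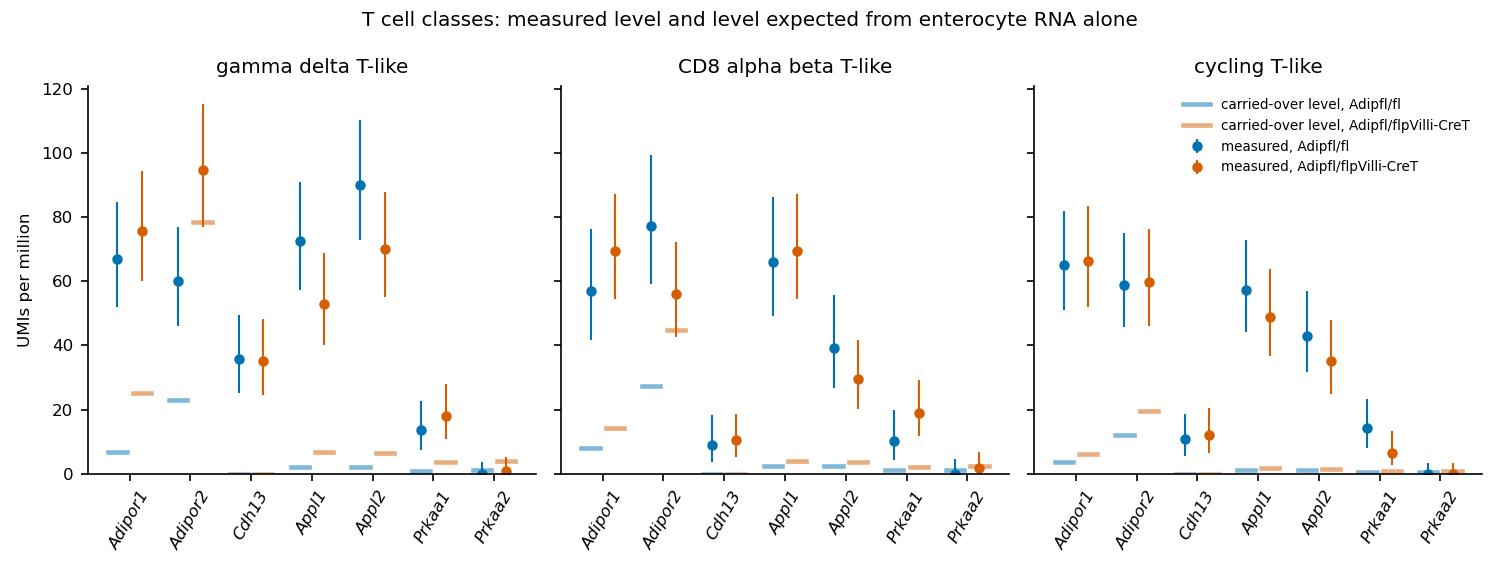
Measured level of the 7 genes in 3 T cell classes (points, 1 library per genotype, bars the 95% Poisson interval; CPM, linear axis from 0) beside the level given by the share of 10 enterocyte genes found in the same cells (short horizontal lines). Measured Adipor1, Appl1, Appl2 and Cdh13 lie above the lines in both libraries, while Adipor2 in Cre gamma delta T-like cells, 94.6, lies near its line at 78.4. In Cre CD8 alpha beta T-like cells Adipor2, 56.1, also lies near its line at 44.9.

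The genes whose levels over the 13 classes were most like those of each member are given as a description, ranked by the lower of the Pearson correlations in the 2 libraries among 6120 genes. All points of a library share its depth and clustering. Adipor2 was most like Slc51a, a subunit of the basolateral bile acid transporter (r = 0.959), Cox7a1 (0.957) and Slc35f5 (0.956). Adipor1 was most like Cd302 (0.901), Blvrb, a biliverdin reductase (0.891), and Ifi30 (0.865). Appl1 was most like Slc20a1 (0.803), Slc25a4 (0.795) and Tpst2 (0.788), and Appl2 most like Tulp4 (0.889), Lypla2 (0.867) and Errfi1 (0.852). Prkaa1 was most like Trim41 (0.865), Dvl3 (0.864) and Cyb5r4 (0.860), and Prkaa2 most like Twf1, an actin-binding protein (0.948), Abat (0.941) and Dcbld1 (0.933). The class pattern of a gene correlated between the 2 libraries at 0.965 for Prkaa2, 0.953 for Adipor2, 0.915 for Appl2, 0.903 for Cdh13, 0.891 for Appl1, 0.859 for Adipor1 and 0.569 for Prkaa1. The class pattern was thus least alike between libraries for Prkaa1, which had 0 UMIs in 7 control and 2 in 16 Cre plasma-like cells.

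None of the members differed by 1.5-fold between the genotypes' libraries in epithelial cells as a whole. Of the 6 that passed the minimum of 10 CPM, 0 were past 1.5-fold, against 143 of 7723 genes (1.85%), 51 higher and 92 lower in Cre cells. With only 6 genes, this count is not read as a difference from the share over all genes. Adipor1 was at 109 CPM in control and 108 in Cre epithelial cells, a fold of 0.992 (0.945 to 1.04). Adipor2 was at 334 and 301, or 0.902-fold (0.877 to 0.928), Appl1 at 31.4 and 28.1, or 0.894-fold (0.814 to 0.982), and Appl2 at 40.7 and 32.1, or 0.789-fold (0.726 to 0.858). These 3 intervals lay below 1, but they cover counting error only and not variation between libraries or mice. The larger share of tip-like cells in the Cre library stood beside them and its part was not tested. Prkaa1 was at 18.4 in both, 0.998-fold (0.886 to 1.13), and Prkaa2 at 18.3 and 18.8, 1.03-fold (0.915 to 1.16). Cdh13 had 1 UMI in each library.

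In the classes the study asked about, most intervals of the folds included 1. In stem-like cells 0 of 6 members were past 1.5-fold, where 1155 of 8805 genes were (13.1%). Adipor1 was 1.12-fold (0.889 to 1.43), Adipor2 1.11-fold (0.843 to 1.48), Appl1 0.907-fold (0.580 to 1.45) and Appl2 0.953-fold (0.489 to 1.97) in Cre over control cells. Prkaa1 was 1.13-fold (0.678 to 1.94) and Prkaa2 0.807-fold (0.465 to 1.45). A change of 1.5-fold lay outside the interval for both receptors and within it in at least 1 direction for the other 4 members that passed. These intervals cover counting error only, so they cannot exclude such a change between mice of the genotypes. In TA-like cells 0 of 6 were past 1.5-fold, against 788 of 8304 genes (9.49%), and Adipor2 was 0.814-fold (0.683 to 0.972). The intervals of the others included 1. Adipor1 was 0.893-fold there, Appl1 0.889-fold and Appl2 0.690-fold (0.343 to 1.42). Prkaa1 was 1.28-fold (0.852 to 1.97) and Prkaa2 1.23-fold (0.835 to 1.83). In neither class is 0 of 6 read as a difference from the share over all genes.

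Class by class, Appl2 was 0.792-fold in mid-villus-like cells (0.695 to 0.903) and 0.729-fold in goblet-like cells (0.618 to 0.863), where it was at 129 in control and 94.3 in Cre cells. In every other named epithelial class its interval included 1. Its fold was 1.02 in villus bottom-like and 1.33 in tuft-like cells (0.675 to 2.67). It was 0.953 in stem-like, 0.935 in villus tip-like, 0.858 in enteroendocrine-like and 0.690 in TA-like cells. Over all immune cells Appl2 was 0.786-fold (0.628 to 0.983). With 1 library per genotype, an effect of genotype and a difference between libraries cannot be told apart in these folds. Over 66 pairs of a named class and a member, 7 were past 1.5-fold (10.6%) and 2 of these had an interval excluding 1 (3.03%). Over all pairs of a named class and a gene, 15.6% were past 1.5-fold and 7.4% also had such an interval. The members' shares rest on only 7 and 2 pairs of the same 7 genes, so they are not read as a difference from the background. The first of the 2 pairs was Prkaa1 in goblet-like cells, at 24.3 in control and 15.8 in Cre cells, 0.649-fold (0.433 to 0.978). The second was Adipor2 in gamma delta T-like cells, 1.58-fold (1.14 to 2.199), in the class and library with the most enterocyte RNA. Without the 8% of cells with the highest doublet scores that value was 0.995-fold (0.649 to 1.52), and as a mean over cells it was 1.03-fold. The single richest Cre gamma delta T-like cell held 17 Adipor2 UMIs, and without the richest cell of each library the fold was 1.46 (1.03 to 2.08), under the 1.5-fold limit.

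**Figure D5:**
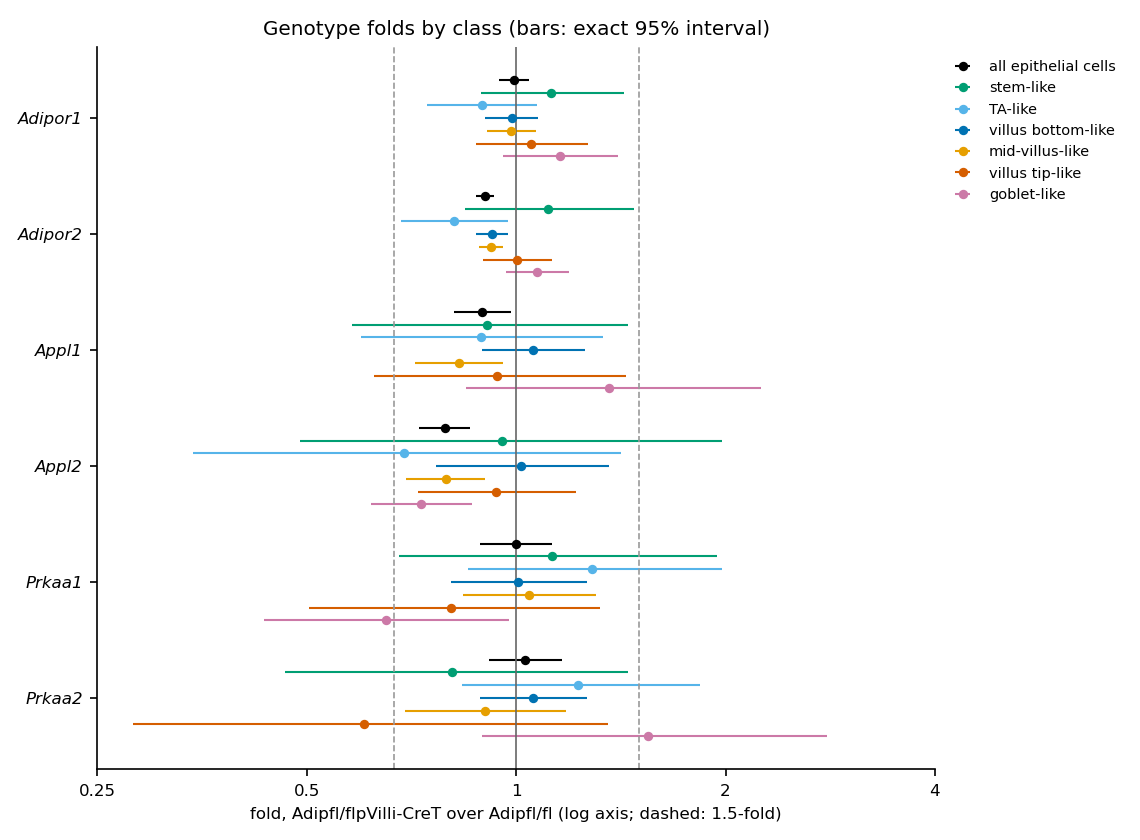
Fold of each gene in Adipfl/flpVilli-CreT over Adipfl/fl (log axis) over all epithelial cells and in 6 epithelial classes, 1 library per genotype, with exact 95% intervals; the solid line marks no difference and the dashed lines 1.5-fold either way, and Prkaa2 at the villus tip, under the minimum, is shown with its wide bar. Over all epithelial cells the 6 points lie between 0.789 for Appl2 and 1.03 for Prkaa2.

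Around the 7 genes, 82 genes of the pathway were set in 8 lists. Over epithelial cells 50 passed the minimum and 0 of them were past 1.5-fold, against 143 of 7723 genes (1.85%). This count is not read as a difference from the share over all genes. The 50 genes had a median log2 fold of 0.01, the same as the median over all genes. Among them were 1 of 10 ligand genes, 3 of 9 other PAQR family genes, 3 of 5 AMPK beta and gamma subunit genes, 5 of 8 upstream kinase genes, 15 of 20 AMPK target genes, 11 of 13 receptor and APPL partner genes, 7 of 11 ceramidase and sphingosine genes and 5 of 6 PPAR alpha genes. The only ligand-like gene over the minimum was C1qtnf12, an adiponectin paralog, at 132 and 136 CPM. Of the upstream kinases Cab39, the scaffold of the LKB1 complex, had the highest level, at 179 and 201 (1.12-fold). Asah2, the neutral ceramidase, was at 637 and 662. The highest of other lists were Rack1 among partners (800.0 and 803), Ppargc1a among AMPK targets (108 and 99.9), Paqr4 (47.5 and 47.0) and Prkag2 (41.3 and 42.3).

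In stem-like cells 4 of 51 pathway genes over the minimum were past 1.5-fold (7.84%), against 13.1% of all genes. Asah2, which hydrolyses ceramide at the surface of enterocytes, was at 18.3 CPM in control and 40.2 in Cre stem-like cells, 2.19-fold (1.34 to 3.78). Ppargc1a, a coactivator of mitochondrial genes, had 4 and 30 UMIs, 2.82-fold (0.993 to 11.01). Map3k7, which encodes the kinase TAK1, was 1.54-fold (0.965 to 2.54) and Stradb, a pseudokinase partner of LKB1, 0.613-fold (0.335 to 1.15). Only the interval of Asah2 excluded 1, and the enterocyte gene list, at 2.69% of its enterocyte level in control and 4.59% in Cre stem-like cells, moved in the same direction. The part of carried-over RNA in the Asah2 value was not tested.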

How the data were processed

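Single cells of crypt-enriched small intestinal epithelium were measured in 1 library per genotype. The authors converted reads with bcl2fastq 5.0.1 and counted UMIs with Cell Ranger (7.1.0 per the file headers) on mm10, per the labels. The deposited tables hold raw counts of UMIs per gene and barcode, without normalization. Reads from overlapping antisense genes and intronic reads were handled in a way not given in the sources used here. The positions given come from GENCODE M21 on GRCm38, in which 3276 of 55357 gene identifiers were not found.

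The quality limits of the study's methods were used (over 500 genes, mitochondrial share under 25%). This left fewer cells than the study retained. Both libraries were clustered together in Seurat 5.3.0 (R 4.3.3; LogNormalize, scale factor 10000, 2000 variable genes, 20 principal components, resolution 0.8), and crypt clusters were split once more at resolution 0.4. A cluster was named from markers at least 2-fold higher in it than in other cells with at least 10 UMIs. In all, 3 cells with at least 20 UMIs of fibroblast and smooth muscle genes, all in the Cre library, were set apart, a step chosen after seeing the data. Cells of clusters without a name counted toward all epithelial or all immune cells. No doublets were taken out. Scrublet, run in scanpy 1.11.5, called 3 cells in each library, too few to have worked, so removal of the 8% with the highest scores was an alternative.

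UMIs were summed per class and library and divided by the class total, per 1000000 UMIs. Levels have exact Poisson 95% intervals, shares Clopper-Pearson intervals, and ratios and folds exact conditional binomial intervals (scipy 1.17.1). A count of 0 allows up to 3 UMIs. PCR duplicates were collapsed by UMI, and all intervals cover counting error only. Folds were called at 1.5-fold either way among genes with at least 10 CPM in at least 1 genotype and 20 UMIs over both. With 1 library per genotype no test was run. Scripts were tested on simulated data. The text names the 7 members and Adipoq, pathway genes past 1.5-fold (at most 2 each way per list), the gene of highest level per list, and the 3 genes most like each member with at least 200 UMIs per library. The members, lists and settings were chosen with earlier results of these data known. A result that this rule would name is not reported here.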

Additional observations from a re-analysis of the deposited data

Results flagged for a closer look

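The genotype fold of Adipor2 went in opposite directions in different classes, with intervals that excluded 1. It was 0.814 in TA-like, 0.922 in villus bottom-like and 0.920 in mid-villus-like cells, but 1.58 in gamma delta T-like cells, and the difference between classes was not tested. The gamma delta T-like value was 0.995 without the 8% of cells with the highest doublet scores.

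All members were also counted in the 6722 control and 6283 Cre barcodes that the quality limits removed, whose median mitochondrial share was 37.9% and 34.4%. In CPM, control first, Adipor1 was at 50.8 and 54.99, Adipor2 at 211 and 170.4, Appl1 at 21.3 and 15.1, Appl2 at 43.7 and 39.2, Prkaa1 at 6.44 and 7.18 and Prkaa2 at 3.46 and 4.63. Cdh13 was at 0.243 in removed control barcodes. Kept cells had Appl2 at 42.2 and 32.7, so among the members Appl2 was higher in removed than in kept barcodes of both libraries. With mitochondrial UMIs taken out of the total, Appl2 was at 74.8 and 64.5 in removed barcodes and at 46.6 and 36.2 in kept cells. On that total Adipor2 was at 361 in removed against 330 in kept control barcodes, but at 281 against 315 in Cre ones. Adipor1 was at 87.0 and 90.6 in removed against 115 and 117 in kept barcodes, and Appl1 at 36.5 and 24.8 against 39.0 and 33.4.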

How the results depend on the processing

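Of 1200 alternative values for 177 results, 1105 kept their direction and stayed within counting error, 84 moved and 11 changed direction. All values stayed within counting error with resolution 1.2, with the members left out of clustering or with stromal cells left in their clusters (an alternative chosen after seeing the data). The same held without the richest cell of a class, although Adipor2 in gamma delta T-like cells was then 1.46-fold, under the 1.5-fold limit. None of the members was among the variable genes of the first clustering, so leaving them out could not change it. The 133 values of that alternative, counted among the 1105, are thus no check of that clustering. The limit of 10% mitochondrial UMIs gave 10 of the 11 changes of direction, where 3 control tip-like cells remained: the control villus bottom to tip ratio of Prkaa2 was 0.388 and control Prkaa1 to Prkaa2 at the tip was 0. Appl1 to Appl2 was 1.27 and 1.30 at mid-villus, 2 at the Cre tip, and 1.43 and 1.09 in the last villus bin. The last to first bin ratio was 1.51 and 1.18 for Adipor2 and 1.52 for control Appl1. The bins under that limit were cut again from the cells left, so they cover another range of the villus score. The other change was Adipor2 in gamma delta T-like cells, 0.995-fold without the highest doublet scores. The epithelial fold of Adipor2 was 0.932 under the 10% limit and 0.875 as a mean over cells, and that of Appl2 0.721 and 0.724. With no minimum, 9 of 78 pathway genes in epithelial cells were past 1.5-fold (11.5%), against 33.8% of all genes. In stem-like cells 12 of 69 were (17.4%), against 39.7% of all genes. With a minimum of 50 CPM it was 0 of 18 in stem-like cells, against 3.24% of all genes, since fewer genes enter. Over all genes the epithelial count of 143 was 41 at that minimum and 8989 with none. Elsewhere the cause was not tested. No paired analysis was possible because each genotype has 1 library. Depth limits the small classes: Appl2 had 13 UMIs in the 41 control stem-like cells and 6 in the 61 control myeloid-like cells.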
